A study of Mus musculus with 14 samples.

Results

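The core pluripotency factors are 5 genes, Pou5f1, Sox2, Nanog, Sall4 and Lin28a, out of the 24054 genes listed for each library. They were taken by gene symbol, and all 5 were present in the 14 mouse libraries and passed the filter on low counts in both fits. Low-input RNA-seq was performed on 6 groups of cells that asked what loss or gain of Foxa2, a pioneer transcription factor of the endoderm, does to embryonic stem (ES) cells and to their differentiation. In d0con and d0ko (2 libraries each), ES cells were held on red-fluorescent feeder fibroblasts without LIF, the cytokine that sustains mouse ES cells, and sorted as Cherry-negative at day 0. In d3con and d3ko (3 libraries each), cells of the same lines were grown for 3 days with 12 ng/ml Activin A on Wnt3a-secreting feeders, which directs ES cells towards endoderm, and were sorted as Venus-positive. The control (con) genotype is Foxa2-Venus-KO/+, in which a nuclear Venus reporter replaces the coding region of 1 Foxa2 allele, so the controls have a single working allele. In the knockout (ko) genotype both alleles carry Venus in this way. A separate line gave d2-FVFn and d2-FVFp (2 libraries each), where a lentiviral TetON promoter drives a fusion of Foxa2 and Venus and both Sox17 alleles carry a Cherry reporter. These cells were kept on gelatin in serum with LIF, without feeders, given 40 ng/ml doxycycline for 48 h, and sorted as Venus-negative (FVFn) or Venus-positive (FVFp).

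Oct4, the product of Pou5f1, is a POU-domain transcription factor that ES cells cannot do without. It binds DNA together with Sox2, an HMG-box factor, at composite sites in which an octamer element lies beside a Sox element, among them sites at Pou5f1, Sox2 and Nanog themselves. Nanog is a homeodomain factor that stabilises the undifferentiated state. Sall4 is a zinc-finger factor that sustains Pou5f1 expression and is also used in early embryonic lineages. Lin28a is an RNA-binding protein that blocks the maturation of let-7 microRNAs and remains present in early embryonic tissues after ES cell identity is lost. When ES cells enter the endoderm lineage, Sox2 is known to be lost early, while Oct4 persists for a time in the mesendoderm.

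On the GRCm38 assembly, Pou5f1 lies at chr17:35506032-35510777, Sox2 at chr3:34649995-34652461, Nanog at chr6:122707489-122714633, Sall4 at chr2:168748332-168767201 and Lin28a at chr4:134003330-134019196. RefSeq promoter windows of GRCm38.p6 were held for 4 of the 5 genes, Pou5f1, Sox2, Nanog and Lin28a. They are shown because Pou5f1, Sox2 and Nanog are textbook targets of their own products, and the Lin28a window is given beside them. Of these, Pou5f1 and Sox2 fell in differentiated control cells, while Nanog did not pass the test. Each line gives the 250 bases before a transcription start, 5′ to 3′ on the strand of the gene, with capitals at letters that match the octamer ATGCAAA or the Sox element ACAATG on either strand.
Pou5f1, chr17:35505782-35506031 (+): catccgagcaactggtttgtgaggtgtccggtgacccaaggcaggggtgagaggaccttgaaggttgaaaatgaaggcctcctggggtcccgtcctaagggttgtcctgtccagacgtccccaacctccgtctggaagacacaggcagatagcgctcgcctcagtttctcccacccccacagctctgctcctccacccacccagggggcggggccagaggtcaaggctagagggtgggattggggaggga
Sox2, chr3:34649745-34649994 (+): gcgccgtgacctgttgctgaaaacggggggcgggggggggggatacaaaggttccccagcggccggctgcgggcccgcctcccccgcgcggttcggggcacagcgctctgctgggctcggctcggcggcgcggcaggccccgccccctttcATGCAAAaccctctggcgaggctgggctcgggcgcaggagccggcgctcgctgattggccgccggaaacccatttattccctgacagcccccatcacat
Nanog, chr6:122707239-122707488 (+): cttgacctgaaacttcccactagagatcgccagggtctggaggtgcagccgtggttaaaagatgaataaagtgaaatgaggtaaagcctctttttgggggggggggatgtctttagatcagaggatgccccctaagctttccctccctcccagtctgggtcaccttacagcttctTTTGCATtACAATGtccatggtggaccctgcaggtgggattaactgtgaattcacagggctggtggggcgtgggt
Lin28a, chr4:134018817-134019066 (-): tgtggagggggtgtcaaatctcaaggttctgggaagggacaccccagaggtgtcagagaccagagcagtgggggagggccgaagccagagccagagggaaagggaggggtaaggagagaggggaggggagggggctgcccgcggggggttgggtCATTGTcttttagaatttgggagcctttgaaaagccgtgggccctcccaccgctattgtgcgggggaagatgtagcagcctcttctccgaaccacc
Nanog held the octamer and the Sox element side by side, the octamer at 75 to 69 bases before the start on the opposite strand and the Sox element at 67 to 62 bases before it on the same strand. Sox2 held 1 octamer, at 99 to 93 bases before its start. Lin28a held 1 Sox element, on the opposite strand at 96 to 91 bases, and its window lies before a start inside the stated span of the gene. The Pou5f1 window at the start of the gene held no match to these letters, and a further Pou5f1 window, before an internal start, held 1 Sox element. Of 32851 promoter windows of 300 bases, 4.63% held the octamer, 12.6% held ACAATG, 5.85% held a longer Sox element, AACAAAG, and 3.65% held the Foxa element TGTTTAC. Neither of the last 2 was found in the windows of these genes. Such matches describe the letters of the windows only.

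Library totals ranged from 14142788 to 27278237 expected counts, and the lowest count behind any value of a core factor was 83.0, for Sox2 in d3con. Levels are given as TPM (a transcript's share of all transcripts in its library, corrected for transcript length), which allows genes to be compared within a library. Foxa2 matched the labels. It lay between 34.8 and 58.6 TPM in d3con and between 0.11 and 0.19 TPM in d3ko, and between 160 and 169 TPM in d2-FVFp against 2.01 to 2.99 TPM in d2-FVFn, where transcripts of the fusion and of the native gene cannot be told apart. The summed level of 8 endoderm markers, Foxa2 included, was 821 to 1050 TPM in d3con, 34.2 to 193 TPM in d3ko and 5.19 to 7.02 TPM at day 0. The day 0 and day 3 cells had been grown on feeder fibroblasts before sorting. The summed level of 9 fibroblast markers was 12.7 to 15 TPM in d0con, 38.8 to 138 TPM in d0ko, 60.6 to 308 TPM in d3con, 136 to 371 TPM in d3ko and at most 4.37 TPM in the doxycycline series. Fibroblast transcripts thus differed between the groups, with Col1a1 the largest contributor, and their part in the differences below was not tested. In these bulk libraries, fewer cells with a transcript and less transcript per cell cannot be told apart.

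The day 0 and day 3 libraries come from few clones. Per the study's sample list, replicates 1 and 3 of a genotype are 1 clone and replicate 2 is another. The 10 libraries thus represent 4 clones. At day 3 each replicate 2 clone gave 1 library, so a trait of the clone and a trait of that library cannot be told apart. The read length used in quantification was also 75 bases for replicate 1 of d3con and of d3ko, against 50 bases elsewhere. Of the genes with a count, 13.7% and 13.6% in these libraries had one that was not a whole number, against 41.5% to 57.3% elsewhere. Reads that match several transcripts may thus have been shared out differently there, which was not tested. The replicate 2 libraries stood apart for several of the genes below, and values without them are also given where they change a call or move a called fold by over 1.5 times. At day 3 they also had the lowest summed fibroblast markers of their groups, 60.6 TPM against 308 and 220 TPM in d3con and 136 TPM against 299 and 371 TPM in d3ko, and the part of this in the results was not tested. The p-values measure the spread between these libraries, which is partly the spread between repeats of 1 clone.

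Pou5f1 was the most abundant of the 5 transcripts in all libraries except 2 of d3con. In d0con it was at 1435 and 1467 TPM and in d0ko at 1335 and 1457 TPM. At day 3 it was at 63.5, 319 and 59.7 TPM in d3con (replicates 1 to 3) and at 523, 501 and 944 TPM in d3ko. Every d3con library lay below every d3ko library, and every d3ko library lay below day 0. The doxycycline line held 1449 and 1594 TPM in d2-FVFn and 1217 and 1025 TPM in d2-FVFp. By group means, the order was d2-FVFn, d0con, d0ko, d2-FVFp, d3ko and d3con, and the first 3 overlapped one another's ranges.

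Sox2 was, after Lin28a, the least abundant member at day 0, with 79.4 and 94.0 TPM in d0con and 80.8 and 87.6 TPM in d0ko. In d3con it fell to 4.99, 7.42 and 2.71 TPM, the lowest values of any core factor in the series. In d3ko it was at 89.3, 14.7 and 86.1 TPM. Replicates 1 and 3 of d3ko thus held the day 0 level, while replicate 2, the other clone, held far less, although still more than any d3con library. The doxycycline groups held 56.9 and 51.1 TPM (d2-FVFn) and 50.3 and 33.4 TPM (d2-FVFp), and these did not overlap. The order by group means was d0con, d0ko, d3ko, d2-FVFn, d2-FVFp and d3con, and the first 4 each overlapped their neighbours among them.

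Nanog was at 248 and 289 TPM in d0con and at 335 and 327 TPM in d0ko. In d3con 2 libraries were at 40.2 and 42.5 TPM and replicate 2 was at 246 TPM, just under the lowest day 0 control. In d3ko all 3 libraries, at 254, 240 and 345 TPM, were near the day 0 level. The range of d3con therefore overlapped that of d3ko, through replicate 2 alone. The line with doxycycline had lower levels, 99.7 and 81.2 TPM in d2-FVFn and 58.6 and 57.7 TPM in d2-FVFp, but it is another line in another medium. The order by group means was d0ko, d3ko, d0con, d3con, d2-FVFn and d2-FVFp. The first 3 overlapped their neighbours, as did d3con and d2-FVFn.

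Sall4 followed another order. It was at 243 and 234 TPM in d0con and 306 and 231 TPM in d0ko, at 289, 316 and 395 TPM in d3con, and at 122, 195 and 136 TPM in d3ko. Control cells at day 3 thus lay above their own day 0 libraries and knockout cells below theirs, with no overlap in either case. In the doxycycline line Sall4 was at 207 and 198 TPM in d2-FVFn and 201 and 165 TPM in d2-FVFp, which overlapped. Lin28a was at 68.3 and 67.2 TPM in d0con, 66.1 and 74.4 TPM in d0ko, and 118.9, 111 and 118.7 TPM in d3con. Knockout cells at day 3 were spread from 59.9 to 118 TPM and overlapped both their day 0 libraries and d3con. In the doxycycline line Lin28a was at 97.3 and 125 TPM in d2-FVFn and at 89.6 and 87.3 TPM in d2-FVFp. By group means, Sall4 ran from d3con over d0ko and d0con to d2-FVFn, d2-FVFp and d3ko, and the single gap between neighbours was the one between d0con and d2-FVFn. Lin28a ran from d3con over d2-FVFn, d2-FVFp, d3ko and d0ko to d0con, with a gap between d2-FVFn and d2-FVFp alone.

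**Figure D1:**
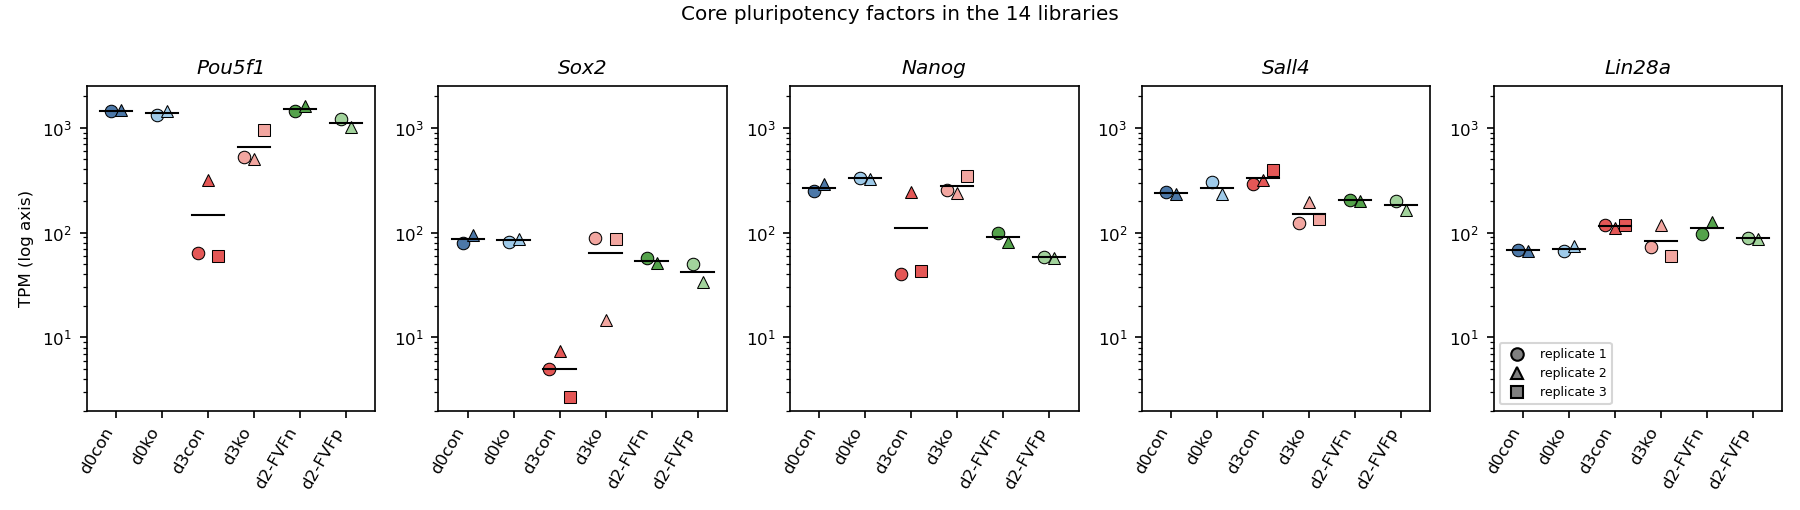
TPM on a log axis for each core factor in the 6 groups. Points are libraries (shape gives the replicate number) and bars are group means. Pou5f1 and Sox2 are lowest in d3con, Nanog is low in 2 of the 3 d3con libraries, and Sall4 is highest in d3con and lowest in d3ko.

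In control cells, differentiation for 3 days was accompanied by a fall of Pou5f1 and Sox2. Pou5f1 fell 11.5-fold (log2 fold change -3.53 ± 0.67 SE, adjusted p = 0.00255) and Sox2 19.8-fold (-4.31 ± 0.69, adjusted p = 0.00118). Without replicate 2 of d3con, the library with the most Pou5f1 of its group, Pou5f1 was at -4.77 (adjusted p = 0.000188). Relative to the day 0 mean, d3con kept 10.2% ± 10.2 (SD, n = 3) of Pou5f1 and 5.81% ± 2.72 of Sox2. A call required an adjusted p under 0.05 together with a change of over 1 in size on the log2 scale. By this rule 2 of the 5 members were called, while 35.2% of all 13899 genes tested were, a share near that of these members. Nanog did not pass (-1.51 ± 0.66, adjusted p = 0.0801). The d3con libraries held 14.96%, 91.6% and 15.8% of its day 0 level. With clone as a block, which pairs day 0 and day 3 libraries of the same clone, Nanog was called (-1.86, adjusted p = 0.0107), as it was by DESeq2 (-1.54, adjusted p = 0.0246) and by limma on log2(TPM + 1) (-1.82, adjusted p = 0.0403), and without replicate 2 of d3con it was at -2.88 (adjusted p = 0.000184). Sall4 (0.25 ± 0.21, adjusted p = 0.337) and Lin28a (0.58 ± 0.24, adjusted p = 0.0703) did not pass the test. Their libraries lay above day 0 in 3 of 3 cases, with 121% to 165% of the day 0 level for Sall4 and 164% to 175% for Lin28a. These are shares of TPM, and the fitted folds were smaller, 1.19 for Sall4 and 1.49 for Lin28a.

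In knockout cells over the same 3 days, Sall4 was the only member called, against 17.3% of all genes tested. Sall4 fell 2.03-fold (-1.02 ± 0.21, adjusted p = 0.00785), and the d3ko libraries kept 45.5%, 72.6% and 50.6% of its day 0 level. Its fold change sat at the threshold. It was at -0.78 without replicate 1 of d0ko (adjusted p = 0.0902), at -0.89 without replicate 1 of d3ko and at -0.96 without replicate 3 of d3ko, and was then not called. Pou5f1 was at -1.26 ± 0.64 (adjusted p = 0.16), with 37.4%, 35.9% and 67.6% of the day 0 level in the 3 libraries. With only these 2 groups fitted, Pou5f1 was called (-1.24, adjusted p = 0.0476) and Sall4 was not (-0.99, adjusted p = 0.0515). With both replicate 2 day 3 libraries left out, Pou5f1 was called beside Sall4 (-1.08, adjusted p = 0.012). Sox2 (-0.57 ± 0.63, adjusted p = 0.52) and Nanog (-0.40 ± 0.66, adjusted p = 0.669) did not pass. Sox2 kept 106% and 102% of its day 0 level in the clone of replicates 1 and 3 and 17.5% in the clone of replicate 2. Lin28a was at 0.08 ± 0.24 (adjusted p = 0.817), and at -0.23 without replicate 2 of d3ko.

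**Figure D2:**
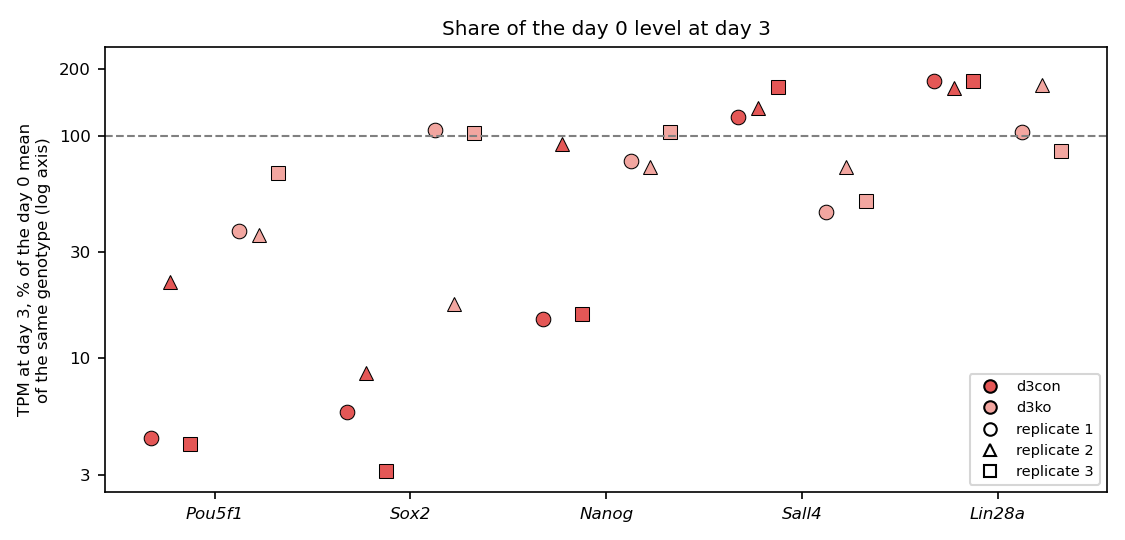
TPM in each day 3 library as a percentage of the day 0 mean of its genotype, on a log axis (dashed line, 100%). In d3con, Pou5f1 and Sox2 lie between 3.13% and 21.98% while Sall4 and Lin28a lie above 100%. In d3ko, Sall4 lies below 100% in all 3 libraries and Sox2 is low only in replicate 2.

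The direct comparison at day 3 asks what the absence of Foxa2 changed in Venus-positive cells. Sox2 was 12.6-fold higher in d3ko than in d3con (3.66 ± 0.64, adjusted p = 0.0136) and Sall4 was 2.20-fold lower (-1.14 ± 0.19, adjusted p = 0.0123). These 2 of 5 members were called, against 8.26% of all genes tested. Pou5f1 was 4.50-fold higher (2.17 ± 0.60) with an adjusted p of 0.0513, which just missed the threshold, and its libraries did not overlap between the groups. It was called by DESeq2 (2.16, adjusted p = 0.0194), with median-of-ratios scaling (adjusted p = 0.0486), with no filter on low counts (adjusted p = 0.0322) and by limma on log2(TPM + 1) (2.54, adjusted p = 0.0267). Nanog was at 1.36 ± 0.60 (adjusted p = 0.179) and Lin28a at -0.49 ± 0.21 (adjusted p = 0.173). Without replicate 2 of d3con, Pou5f1 (3.41, adjusted p = 0.000762) and Nanog (2.74, adjusted p = 0.000365) were both called, and without replicate 2 of d3ko Pou5f1 was called (2.34, adjusted p = 0.0305). Without both of these libraries Sox2 was at 4.49 (adjusted p = 8.1e-05). Without replicate 3 of d3con neither Sox2 (3.33, adjusted p = 0.0694) nor Sall4 (-1.04, adjusted p = 0.0637) was called, and without replicate 1 of d3con Sox2 was not (3.67, adjusted p = 0.0612). With replicates 1 and 3 of each group summed, because they are the same clone, Sox2 was at 3.19 (adjusted p = 0.125) and Sall4 at -1.04 (adjusted p = 0.11), and no member was called. With only d3con and d3ko fitted, Sox2 (3.65, adjusted p = 0.0585) and Sall4 (-1.13, adjusted p = 0.0551) were not called, and neither was called with both 75-base libraries left out.

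Whether the day 0 to day 3 change itself differed between the genotypes was tested by the interaction. None of the 5 members passed, and 0% of all genes tested did by edgeR's quasi-likelihood test, although 1840 of 13899 genes and 3 of the members had an unadjusted p under 0.05. Foxa2, the deleted gene, did not pass either (-7.68 ± 0.87, adjusted p = 0.0544). The absence of a call here therefore does not show that the changes were alike in the 2 genotypes. For Sall4 the interaction was -1.27 ± 0.30 (unadjusted p = 0.00193, adjusted p = 0.156) and for Sox2 it was 3.74 ± 0.94 (unadjusted p = 0.00309, adjusted p = 0.17). Pou5f1 was at 2.27 ± 0.93 (adjusted p = 0.332), Nanog at 1.10 ± 0.94 (adjusted p = 0.657) and Lin28a at -0.50 ± 0.34 (adjusted p = 0.568). DESeq2 called 566 genes in the interaction, among them Sox2 (3.75, adjusted p = 0.00141) and Sall4 (-1.25, adjusted p = 0.0119). By edgeR, leaving out replicate 2 of d3con gave calls for Pou5f1 (3.51, adjusted p = 0.00982) and Nanog (2.48, adjusted p = 0.00736). Leaving out replicate 2 of d3ko gave calls for Sox2 (4.21, adjusted p = 0.00205) and Sall4 (-1.48, adjusted p = 0.00806).

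**Figure D3:**
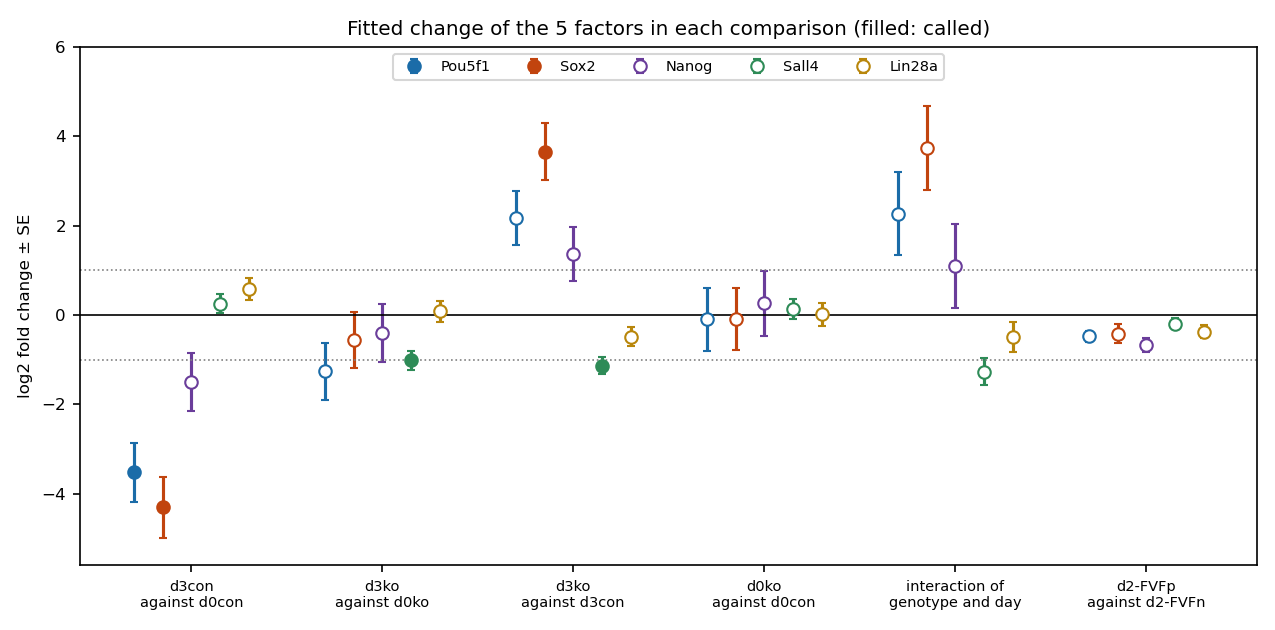
Log2 fold change ± SE of each core factor in the 6 comparisons, from the fit across all genes. Filled points were called and dotted lines mark the fold threshold of 1 on the log2 scale. Pou5f1 and Sox2 stand lowest in d3con against d0con, and Sall4 is the only member below -1 in d3ko against d0ko with a call.

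At day 0, where Foxa2 was at most 0.14 TPM in either genotype, none of the members was called between d0ko and d0con, 0 of 5 had an unadjusted p under 0.05, and 0% of all genes tested were called (195 genes had an unadjusted p under 0.05, and DESeq2 called 1 gene). The fitted changes ranged from -0.10 ± 0.71 for Pou5f1 to 0.26 ± 0.73 for Nanog. The fit shares 1 estimate of the spread with the day 3 libraries, which differed among themselves for Pou5f1, Sox2 and Nanog.

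In the doxycycline line, all 5 members were lower on average in cells with the Foxa2-Venus fusion, by less than 2-fold, and none was called, against 8.43% of 12943 genes. All of these libraries are from the same line, T119, so the p-values measure the spread between its repeats only. Nanog was at -0.68 ± 0.16 (adjusted p = 0.0276) and Pou5f1 at -0.48 ± 0.12 (adjusted p = 0.0386), so both passed on the adjusted p and missed on the fold. Sox2 (-0.42 ± 0.21, adjusted p = 0.208), Lin28a (-0.38 ± 0.15, adjusted p = 0.118) and Sall4 (-0.19 ± 0.13, adjusted p = 0.328) passed on neither. The share of all genes that passed on the adjusted p alone was not counted. By the same edgeR test, 4324 of 12943 genes and 3 of the members had an unadjusted p under 0.05. Relative to the mean of the Venus-negative libraries, the Venus-positive libraries held 80.0% and 67.3% of the Pou5f1 level and 64.9% and 63.8% of the Nanog level. Foxa2 was higher in these cells than in d3con, and they also had LIF and serum, so the d2-FVFp and d3con levels are given side by side only.

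Ratios between 2 members within a library do not depend on how libraries are scaled. Of the 10 pairs, 2 differed between the 6 day 3 and the 4 day 0 libraries of both genotypes. Both pairs hold Pou5f1, and the share among other pairs of genes was not computed. The Pou5f1 to Nanog ratio was 3.99 to 5.79 at day 0 and 1.30 to 2.73 at day 3, in the order d3con (1.58, 1.30 and 1.40) below d3ko (2.05, 2.09 and 2.73). On the log2 scale its mean fell by 1.41 (exact two-sided permutation p = 0.0095, the smallest this design can give, and 0.0476 after adjustment over the 10 pairs). The replicate 2 library of d3con, which held the most Nanog and the most Pou5f1 of its group, had a ratio like the other two. The Pou5f1 to Lin28a ratio was 19.6 to 21.8 at day 0, 0.503 to 2.86 in d3con and 4.24 to 15.8 in d3ko, and its log2 mean fell by 2.95 (exact permutation p = 0.0095, adjusted p = 0.0476). The 10 libraries come from 4 clones, so these p-values treat repeats of a clone as separate.

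The other 8 pairs did not pass. The Pou5f1 to Sox2 ratio was 15.6 to 18.1 at day 0 and spread at day 3 from 5.85 in replicate 1 of d3ko to 43.0 in replicate 2 of d3con, so the mean difference was 0.05 on the log2 scale (exact permutation p = 0.962, adjusted p = 0.962). In d3con and d3ko alike, the replicate 2 library had the highest Pou5f1 to Sox2 ratio, 43.0 and 34.0, and these libraries are different clones. The Pou5f1 to Sall4 ratio was 4.36 to 6.29 at day 0, 0.151 to 1.01 in d3con and 2.57 to 6.93 in d3ko. Between d3ko and d3con, 7 of the 10 ratios did not overlap, and 3 against 3 libraries cannot give an exact p below 0.1 (0.143 after adjustment). The 10 ratios share genes and are not independent, and the share among other pairs of genes was not computed. In the doxycycline line the Pou5f1 to Nanog ratio was 14.5 and 19.6 in d2-FVFn and 20.8 and 17.8 in d2-FVFp, which overlapped.

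**Figure D4:**
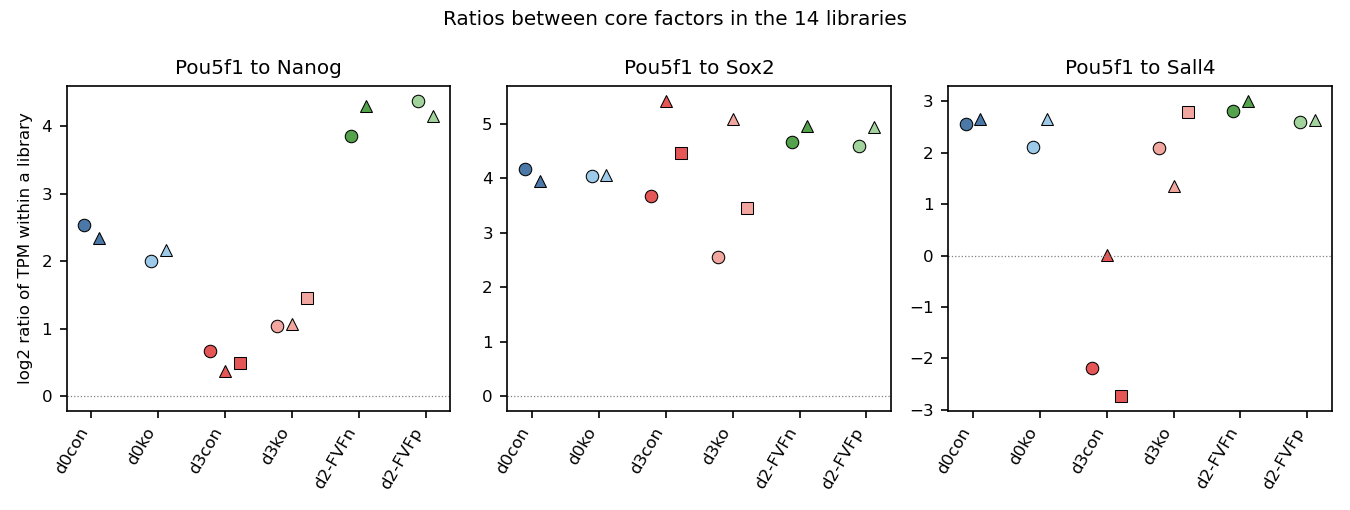
Log2 ratio of TPM of Pou5f1 to Nanog, to Sox2 and to Sall4 in each library of the 6 groups (shapes as replicate numbers, colours as groups). The ratio to Nanog is lower in all 6 day 3 libraries than in the 4 day 0 libraries, the ratio to Sox2 spreads at day 3 without a common direction, and the ratio to Sall4 falls below 0 only in 2 d3con libraries.

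The genes that work with the core factors were read from fixed lists, as counts called and medians. For all lists, the share called over all genes tested was 35.2% in d3con against d0con and 17.3% in d3ko against d0ko. It was 8.26% in d3ko against d3con and 8.43% in the doxycycline line. Of 12 partners and shared targets of the core factors, 9 fell and 1 rose in d3con against d0con, with a median log2 fold change of -2.78 against 0.07 over all genes tested. The largest changes were those of Dppa2 (-7.19 ± 0.93) and Dppa4 (-5.84 ± 0.74), chromatin proteins that act as a pair, Utf1 (-5.49 ± 0.72), a chromatin factor of undifferentiated cells, and Fgf4 (-5.40 ± 0.78), a growth factor gene with an enhancer bound by Oct4 and Sox2. The gene that rose was Lefty1 (1.83 ± 0.34), a Nodal inhibitor that Activin signalling also induces. In d3ko against d0ko 6 fell and none rose (median -1.29), led by Dppa2 (-2.38 ± 0.75), L1td1 (-2.01 ± 0.42), Utf1 (-1.92 ± 0.64) and Zscan10 (-1.53 ± 0.19). That count was 2 without replicate 1 of d0ko and 3 without replicate 1 of d3ko. Between d3ko and d3con 6 were higher, led by Fgf4 (5.01 ± 0.74), Dppa2 (4.95 ± 0.84), Dppa4 (4.32 ± 0.68) and Utf1 (3.29 ± 0.64), and Lefty1 was lower (-2.09 ± 0.30). The number higher was 2 without replicate 1 and 0 without replicate 3 of d3con. None was called in the doxycycline line (median -0.32).

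The naive pluripotency factors, which hold the ground state of mouse ES cells, were called in control cells and not in knockout cells. By edgeR the interaction called none of them, nor any other gene, Foxa2 included. In d3con all 13 fell (median -4.62), led by Nr0b1 (-6.60 ± 1.05), Zfp42 (-5.75 ± 0.76), Nr5a2 (-5.47 ± 0.82) and Tcl1 (-5.34 ± 0.91). In d3ko against d0ko none of the 13 was called (median -0.47). Their summed level was 1676 and 2127 TPM in replicates 1 and 3 of d3ko, against 1900 to 2160 TPM at day 0, and 232 TPM in replicate 2. In d3con it was 114 to 174 TPM. Esrrb, a nuclear receptor that can stand in for Nanog, was at 50.02, 10.5 and 85.4 TPM in d3ko and at most 2.09 TPM in d3con. Sox2 and the naive factors were thus low in the same d3ko library, while Pou5f1 and Nanog in that library were close to replicate 1. Between d3ko and d3con, 12 of 13 naive factors were higher (median 3.97), among them Tcl1 (5.13 ± 0.88), Nr0b1 (4.69 ± 0.95), Esrrb (4.68 ± 0.65) and Zfp42 (4.53 ± 0.70). The number called was 6 without replicate 1 of d3con, 1 without replicate 3 of d3con and 0 with both replicate 1 libraries left out, when the median was 3.84. In the doxycycline line Tbx3 (1.88 ± 0.33) and Klf4 (1.29 ± 0.29) rose and Nr5a2 (-2.04 ± 0.51) fell, of 13 tested, and with 1 library left out 1 to 3 rose and 0 to 2 fell.

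Of 14 genes of the Lin28 and let-7 pathway, 8 rose and 1 fell in d3con against d0con (median 1.05), and 6 rose and none fell in d3ko against d0ko (median 0.85). Over all genes tested, 35.2% and 17.3% were called in these comparisons, with a median of 0.07 in each. Hmga2, a chromatin protein repressed by let-7, rose by 3.87 ± 0.62 in control and 3.41 ± 0.60 in knockout cells. Arid3b rose by 1.77 ± 0.52 and 1.78 ± 0.52, Igf2bp2 by 1.64 ± 0.19 and 1.60 ± 0.19, and Igf2bp3 by 1.45 ± 0.23 and 1.19 ± 0.23. Zcchc11, which tails the let-7 precursors bound by Lin28, rose by 1.35 ± 0.30 in knockout cells and was not called in control cells (0.75 ± 0.29). The number that rose in control cells was 5 without replicate 1 and 5 without replicate 2 of d0con. The gene that fell in control cells was Mycn (-1.29 ± 0.41). The number called in knockout cells was 2 higher and 1 lower without replicate 2 of d0ko, 4 higher without replicate 1 of d0ko, and 4 higher and 1 lower without replicate 2 of d3ko. None of the 14 was called between d3ko and d3con. Lin28b, the paralogue of Lin28a, rose in d3con (1.0 ± 0.36, adjusted p = 0.0397) and was the single gene of the list called in the doxycycline line, where it fell by 1.27 ± 0.19.

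Among 8 tested family members of the core factors, 2 rose and 2 fell in d3con against d0con, beside 35.2% of all genes called. Sox15 (-3.94 ± 0.57) and Sall3 (-1.90 ± 0.63) fell, and Sox3 (2.10 ± 0.72) and Lin28b rose. With 1 library left out, 0 to 1 rose and 1 to 3 fell. None was called in d3ko against d0ko, where 2 rose and 1 fell with clone as a block. Sox15, which can take the place of Sox2 at some sites, was higher in d3ko than in d3con (2.76 ± 0.52). In the doxycycline line Pou3f1 (-1.60 ± 0.16), Sall2 (-1.51 ± 0.27) and Lin28b fell. Of 4 tested repressors of the core factors, Nr6a1, which silences Pou5f1 as cells differentiate, rose in d3con (1.08 ± 0.37). In knockout cells its change was of like size and did not pass (1.01 ± 0.36, adjusted p = 0.0628). Nr2f2 was also called in d3con, but it was listed at 0 in both d0con libraries and reached at most 0.84 TPM. Trp53, which represses Nanog, fell in both genotypes, by 2.13 ± 0.12 in control and 1.44 ± 0.12 in knockout cells, and Tcf7l1 fell in knockout cells (-1.08 ± 0.18). In control cells Tcf7l1 passed on the adjusted p and missed on the fold (-0.77 ± 0.18, adjusted p = 0.00617). Cdx2, which opposes Pou5f1 in the early embryo, rose in d2-FVFp (6.10 ± 0.66), from at most 0.18 TPM to 7.29 and 7.44 TPM.

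Among 9 genes of the formative and primed epiblast, the stage between naive cells and gastrulation, Fgf5 (6.80 ± 1.18), Otx2 (3.84 ± 0.63) and Zic2 (3.55 ± 0.75) rose in d3con and Foxd3 (-5.56 ± 0.74) and Dnmt3a (-1.26 ± 0.43) fell. In d3ko Fgf5 (4.55 ± 1.06) and Zic2 (3.01 ± 0.72) rose, and Foxd3 (-2.13 ± 0.64) and Dnmt3b (-1.47 ± 0.33) fell. Over all genes tested, 35.2% were called in d3con and 17.3% in d3ko. None of the 9 was called in d3ko without replicate 1 or without replicate 2 of d0ko. Fgf5 was at 39.3, 223 and 16.3 TPM in d3ko, highest in replicate 2, the library with the least Sox2. Between d3ko and d3con, Foxd3 was higher (3.13 ± 0.68) and Otx2 (-2.19 ± 0.49) and Dnmt3b (-2.17 ± 0.31) were lower. In d2-FVFp 6 of 8 fell and none rose (median -1.22), led by Fgf5 (-2.21 ± 0.51), Lef1 (-1.93 ± 0.26), Pou3f1 and Dnmt3b (-1.36 ± 0.13).

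The cell type markers are given by their counts, against 35.2% of all genes called in d3con and 17.3% in d3ko. In d3con 8 of 8 endoderm and 5 of 6 primitive streak and mesoderm markers rose, against 5 of 8 and 5 of 6 in d3ko. Of the endoderm markers that rose in d3ko, Sox17 reached at most 2.10 TPM there, against 62.4 to 131 TPM in d3con. Cer1 was at 1.22, 56.4 and 1.87 TPM in d3ko, against 544 to 548 TPM in d3con. Gata4 (13.8 to 69.0 TPM), Gata6 (4.34 to 28.9 TPM) and Cxcr4 (3.51 to 31.7 TPM) also rose in d3ko. Foxa2 is 1 of the 8 endoderm markers, and its outcome was set by the sort in d3con and by the deletion in d3ko. Of 4 tested neural markers, 3 fell in d3con and 2 in d3ko, and of 5 germ cell markers 3 fell and 1 rose in d3con and 2 fell in d3ko. Of 8 tested fibroblast markers, 5 rose in d3con and 2 in d3ko. Of 4 tested extraembryonic endoderm markers, 2 rose in d3con and 1 in d3ko, and Afp was listed at 0 in all libraries of both.

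**Figure D5:**
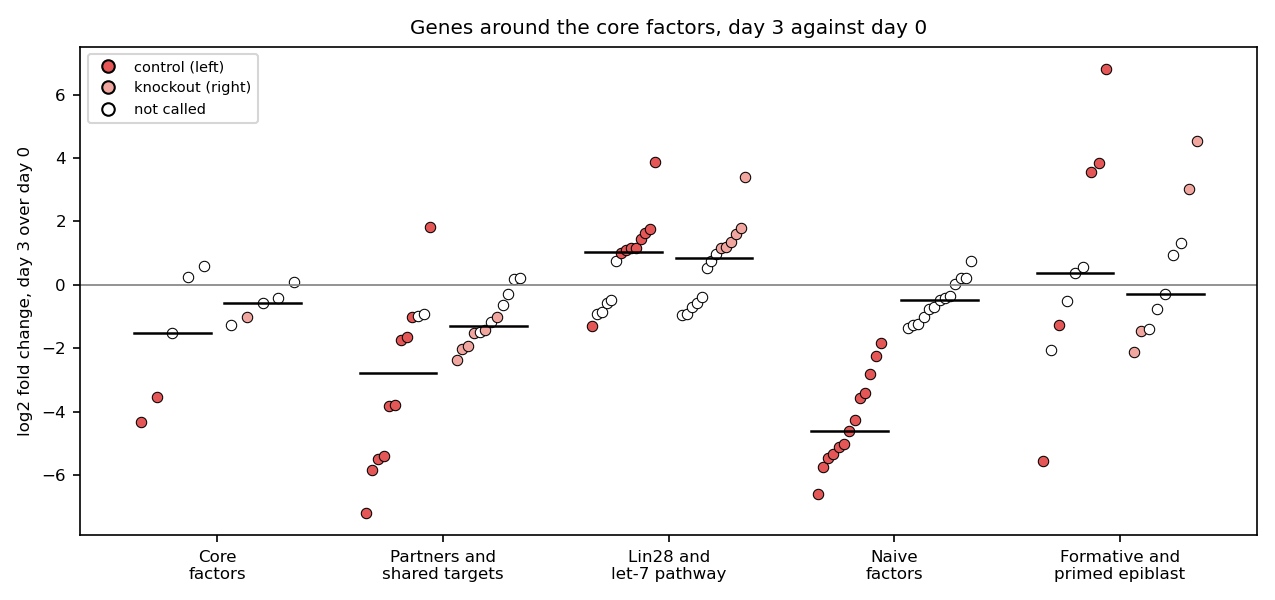
Log2 fold change of day 3 over day 0 for the genes of 5 lists, control cells on the left and knockout cells on the right of each list. Points are genes (open, not called) and bars are medians. All 13 naive factors lie below 0 in control cells (median -4.62) and are not called in knockout cells (median -0.47), while the Lin28 and let-7 pathway has medians of 1.05 in control and 0.85 in knockout cells.

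The members did not form a single pattern over the 14 libraries. With log2(TPM + 1) centred on each gene's mean, Pou5f1 and Sox2 differed by a root-mean-square of 0.72 and Sall4 and Lin28a by 0.46, while the 4 pairs across these 2 couples differed by 1.78 to 1.86. Nanog differed by 1.30 to 1.41 from each of the other 4. Among 8003 genes with a mean of at least 10 TPM, the genes most like Pou5f1 were B3gnt7 (0.37), L1td1 (0.37) and Pmm1 (0.42). L1td1, an RNA-binding protein of ES cells, was also on the list of partners. The nearest genes to Sox2 were Hsf2bp (0.36), Gm6792 (0.36) and Slc28a1 (0.38), and each was low in d3con and in replicate 2 of d3ko. Hsf2bp, for example, was at 2.25, 3.01 and 2.73 TPM in d3con and at 48.8, 8.14 and 62.1 TPM in d3ko. The nearest to Nanog were Gjb5 (0.53) and Tfap2c (0.55), which are farther from it than the neighbours of the other members are from theirs. Those of Sall4 were Tnk1 (0.23), Rnaseh2c (0.26) and Skiv2l (0.26), and those of Lin28a were Zdhhc6 (0.12), Polr3k (0.14) and Ptbp2 (0.15). A small difference here can also mean that a gene hardly varied, as for Lin28a, whose levels spanned 59.9 to 125 TPM over all libraries.

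The abundance-weighted transcript length of Sall4 was 5042 to 5058 bases at day 0 and 4930 to 5043 bases at day 3, and that of Pou5f1 was 1349 to 1353 bases at day 0 and 1317 to 1353 bases at day 3. Sox2 and Lin28a have 1 listed transcript each. Pou5f1 and Nanog have pseudogene copies in the mouse genome, and reads shared with such copies could not be separated here.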

How the data were processed

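RNA was measured by low-input RNA-seq in 14 mouse libraries. Per the labels and the study's methods, the authors aligned reads to mm10 with STAR and estimated abundance per library with RSEM on RefSeq transcripts (versions not given in the sources used here). The deposited expected counts are the authors' RSEM estimates of reads per gene, shared among matching transcripts. The deposited TPM values were scaled by the authors for transcript length and library total, and the deposited FPKM values were not tested.

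Expected counts were rounded, and genes with at least 1 CPM in at least 2 libraries of a fit were scaled by TMM and tested with edgeR 4.0.16 (quasi-likelihood F test, Benjamini-Hochberg over all genes tested, R 4.3.3). The 10 day 0 and day 3 libraries formed 1 fit (13899 genes) and the 4 doxycycline libraries another (12943 genes). Standard errors were the log2 change over the root of F. The functions were checked on simulated data. Ratios were compared with exact two-sided permutation tests over libraries.

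Groups came from the labels and clones from the study's sample list. Within a genotype, same-numbered libraries are the same clone, although their deviations from the group means hardly correlated across genes (r from -0.02 to 0.06). Alternatives were DESeq2 1.42.0, median-of-ratios scaling, other filters, limma 3.58.1 on log2(TPM + 1), blocks, fits of fewer groups, summed clones and libraries left out.

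The members, gene lists and tests were chosen with earlier results of these data known. Named genes were the members, Foxa2, up to 4 of the largest called changes of each list in each comparison, and the 3 genes most like each member, of which 1 is not reported here. Genes named outside this rule (values of Esrrb, Fgf5, Hsf2bp and endoderm markers by library, and genes of small counts) were chosen after their values were seen.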

Additional observations from a re-analysis of the deposited data

Results flagged for a closer look

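Sall4 was flagged because its day 3 libraries lay on opposite sides of day 0 in the 2 genotypes. The fall in knockout cells passed the test (-1.02 ± 0.21, adjusted p = 0.00785), and the difference in control cells did not (0.25 ± 0.21, adjusted p = 0.337). All 3 d3con libraries (289, 316 and 395 TPM) lay above both d0con libraries (243 and 234 TPM), and all 3 d3ko libraries (122, 195 and 136 TPM) lay below both d0ko libraries (306 and 231 TPM). Tested as an interaction, the difference of the log2 changes was -1.27 ± 0.30 (edgeR's quasi-likelihood test, unadjusted p = 0.00193, adjusted p = 0.156), so the difference did not pass the adjustment over all genes. The fitted interaction was negative under every alternative run, from -1.48 to -1.03. Groups of 2 or 3 libraries are too small for the test of single outlying libraries.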

How the results depend on the processing

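In d3con against d0con, 2 or 3 of the 5 core factors were called under every alternative, and Pou5f1 and Sox2 kept their direction. No member was called in d0ko against d0con or in d2-FVFp against d2-FVFn under any alternative. In d3ko against d0ko the count of 1 became 0 without a filter on low counts, with a mean count of at least 50, with limma on log2(TPM + 1) and with both 75-base day 3 libraries left out, and 2 with both replicate 2 day 3 libraries left out, a setting added after the data were seen. With only these 2 groups fitted the count stayed at 1, with Pou5f1 in place of Sall4. In d3ko against d3con the count of 2 became 0 with only the 2 groups compared, with both 75-base libraries left out and with replicates 1 and 3 of each group summed, 4 with both replicate 2 libraries left out, and 3, with Pou5f1 added, by DESeq2, median-of-ratios scaling, no filter and limma. DESeq2 called 2 members in the interaction, against 0. Leaving out 1 library at a time gave 2 to 3 members in d3con against d0con, 0 to 1 in d3ko against d0ko, 0 to 4 in d3ko against d3con, 0 to 2 in the interaction and 0 in the other 2 comparisons. The 2 pairs whose ratios differed between day 3 and day 0 became 0 to 4 pairs with 1 library left out, 0 in 9 of 10 cases, where fewer libraries raise the smallest possible p.

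Over all genes, d3ko against d3con gave 1148 calls, 67 with only these groups fitted, 1 with both 75-base libraries left out, 1 with clones summed and 2572 without both replicate 2 libraries. The interaction gave 0 calls, 566 by DESeq2, 16 without a filter, 12 by limma, 3 with clone as a block, 128 without replicate 2 of d3con and 1118 without replicate 2 of d3ko. In d3ko against d0ko the 2408 calls became 1345 with only these groups fitted. The causes were not tested.

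With 1 library left out, Lin28a ranged from -0.23 (without replicate 2 of d3ko, reversed) to 0.27 in d3ko against d0ko, and went to -0.23 without both replicate 2 libraries. In d0ko against d0con, where nothing was called, Lin28a went from 0.01 to -0.01 by DESeq2, median-of-ratios scaling and no filter and ranged from -0.06 (without replicate 2 of d0ko) to 0.07 with 1 library left out, Sox2 from -0.20 to 0.05 (without replicate 2 of d0con) and Sall4 from -0.11 (without replicate 1 of d0ko) to 0.34. The Pou5f1 to Sox2 ratio, with a difference of 0.05, ranged from -0.22 without replicate 2 of d3con, through -0.15 without replicate 2 of d3ko and -0.02 without replicate 3 of d3con, to 0.36. Limma on TPM moved the median of all genes to 0.21 in d3con against d0con and 0.16 in d3ko against d0ko.

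The replicate block by number changed no call of a member (2 in d3con against d0con, 1 in d3ko against d0ko, 2 in d3ko against d3con, 0 elsewhere). The block by clone added the call of Nanog in d3con against d0con and changed no other call of a member. Between genotypes at day 3, same-numbered libraries, which are different clones, correlated at 0.50, 0.29 and -0.01. These values do not settle whether the numbers pair them. Between d2-FVFn and d2-FVFp the correlation was 0.22 for both numbers, which is 1 value, because 2 libraries of a group deviate from their mean by equal amounts.

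Of the 3 nearest genes to each member, Pearson correlation in place of the root-mean-square difference kept 1 for Pou5f1, 1 for Sox2, 0 for Nanog, 1 for Sall4 and 2 for Lin28a, and a pseudocount of 0.1 kept 1 for Sox2 and 3 for each other member.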
